A study of Mus musculus with 25 samples.

Results

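The comparison described here set liver vesicles of 12-month-old mice against those of 6-month-old mice, across every miRNA counted and by miRNA family. Small extracellular vesicles (sEVs) are membrane-bound particles of nanometre size that cells release with part of their RNA. The study counted miRNAs in liver sEVs of wild-type C57BL/6J animals of 5 ages, with 5 mice per age and 1 library per mouse. The members were chosen by the age in the labels alone, which gave 10 of the 25 libraries: 5 at 6 months (mice 11 to 15) and 5 at 12 months (mice 16 to 20). The labels name no treatment, diet or genetic change at either age, and give the same genotype and the same text on housing for both. Both sexes are said to be equally represented, but the sex of each mouse is not given. Livers were kept frozen, broken up with a kit made for human tumours, and the vesicles were collected by ultracentrifugation. The label field for batch holds the age itself, so age and any handling that went with it cannot be told apart. The values describe vesicle RNA from whole liver, in which fewer vesicles from a cell type and less of a miRNA per vesicle cannot be told apart.

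A miRNA is a short RNA that guides a silencing complex to messenger RNAs, chiefly by pairing through its seed, bases 2 to 8 from the 5′ end. miRNAs with the same seed are grouped as a family, because they can pair with the same sites. Each hairpin precursor can yield a miRNA from its 5′ arm (5p) and one from its 3′ arm (3p). Hepatocytes are known for very high miR-122, blood cells for miR-142, miR-155, miR-223 and miR-451a, stellate and smooth muscle cells for miR-143, miR-145 and miR-199, and endothelium for miR-126.

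The mature sequences below are those of the miRNAs on which the comparison turned, taken from RefSeq (GRCm38.p6), 5′ to 3′ with the seed in capitals. They cover 6 members of an X-linked cluster, a pair of leukocyte miRNAs, the miR-29 family, the miR-199a arms and miR-802-5p.
miR-741-3p: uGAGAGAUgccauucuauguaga
miR-743a-3p: gAAAGACAccaagcugaguaga
miR-743b-3p: gAAAGACAucaugcugaauaga
miR-465a-3p: gAUCAGGGccuuucuaaguaga
miR-871-3p: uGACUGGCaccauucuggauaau
miR-547-3p: cUUGGUACaucuuugagugag
miR-155-5p: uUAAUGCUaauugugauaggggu
miR-142a-5p: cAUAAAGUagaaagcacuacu
miR-29a-3p: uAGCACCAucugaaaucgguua
miR-29b-3p: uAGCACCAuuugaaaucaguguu
miR-29c-3p: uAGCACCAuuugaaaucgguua
miR-199a-3p: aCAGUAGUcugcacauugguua
miR-199a-5p: cCCAGUGUucagacuaccuguuc
miR-802-5p: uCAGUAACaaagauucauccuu
The 3 guide arms of miR-29 shared the seed AGCACCA, and miR-743a-3p and miR-743b-3p shared AAAGACA. All but these 2 groups had seeds of their own among the sequences shown. miR-29a-3p and miR-29c-3p differed at a single base, C10U with positions counted from 1 at the 5′ end.

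No miRNA passed the test between 6 and 12 months. The table held 1493 entries, 1095 with the name of a mouse miRNA and 398 called unconservative, a term the labels do not explain. Of these, 391 had enough counts to be tested, 339 named and 52 unconservative. Called entries numbered 0 of 391 (percent called 0) at an adjusted p of 0.05 in edgeR's quasi-likelihood test with Benjamini-Hochberg adjustment, and the smallest adjusted p was 0.358. At an unadjusted p under 0.05 there were 28 entries (7.16%), 13 higher (3.32%) and 15 lower (3.84%) at 12 months. DESeq2 and limma voom also called 0, with 30 and 32 entries at an unadjusted p under 0.05. The neighbouring steps in age gave 7 calls from 6 weeks to 6 months (1.79%) and 0 from 12 to 14 months; they share libraries with the step described here. Entries in which the 5 libraries of each age did not overlap numbered 3 (0.767%): miR-145a-5p and miR-3105-5p were above at 12 months (0.512%) and miR-383-5p was below (0.256%). By chance alone, 5 against 5 libraries lie fully apart in a fraction 0.00794 of splits, which is close to this share.

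Abundant miRNAs were bounded more tightly than rare ones. Levels are given in counts per 1000000 (CPM) scaled with TMM factors, and log2 fold changes as 12 months minus 6 months with their approximate SE. For 160 of the 391 entries, all of them named, the 95% interval of the fold change lay within 2-fold either way. Entries at a log2 fold change of exactly 0 are among the 160. Their approximate SE is then 0, so the interval has no width and bounds nothing. Of the tested entries, 5 had no count in any of the 10 libraries. Of the 130 named miRNAs at a mean of at least 50 CPM, 110 were bounded in this way. Estimates of at least 2-fold were made for 46 entries, of which miR-155-5p and 1 unconservative entry had a mean of at least 50 CPM. The median log2 fold change was -0.033 over all tested entries and 0.0013 over the named ones. Of the named, 171 were above 0 and 168 at or below 0.

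**Figure D1:**
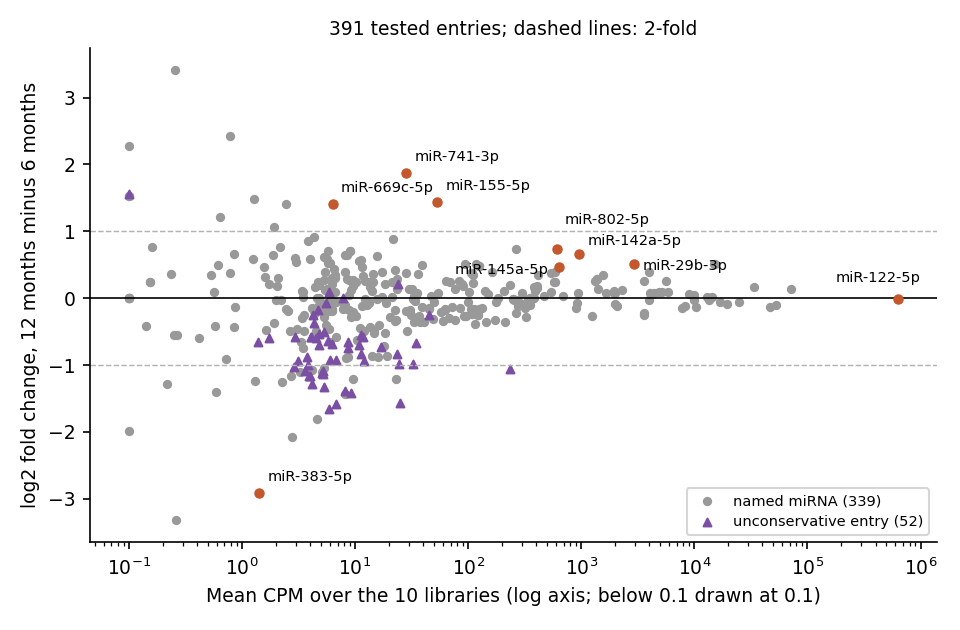
Log2 fold change, 12 months minus 6 months, of the 391 tested entries (vertical axis) against their mean CPM over the 10 libraries (log axis); grey points are the 339 named miRNAs, purple triangles the 52 unconservative entries, orange points miRNAs named in the text, and dashed lines mark 2-fold. Above 50 CPM every point but miR-155-5p and 1 unconservative entry lies between the dashed lines, and 48 of the 52 unconservative entries lie below 0.

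The libraries of both ages carried the profile of liver. miR-122-5p, the dominant hepatocyte miRNA, held 54.4 to 59.0% of counts at 6 months and 54.0 to 57.6% at 12 months (exact permutation test p = 0.421, adjusted p = 0.841 over 4 library values). The 10 most abundant miRNAs held 82.6% ± 1.07 and 82.5% ± 0.608 of counts (SD, n = 5 each; exact permutation test p = 0.754). Library totals ran from 1052751 to 2485335 counts at 6 months and from 839642 to 3778798 at 12 months, averaging 1413686 ± 603587 and 2179828 ± 1139953 (SD, n = 5; exact permutation test p = 0.302, the smallest possible p being 0.00794). Thinned to the smallest total, the libraries held 409.2 ± 13.0 and 409.9 ± 10.6 miRNAs with a count (SD, n = 5; exact permutation test p = 0.921). A miRNA with 0 counts lay below a floor of 3 counts, which equalled 0.978 CPM in the deepest of these libraries and 3.71 CPM in the shallowest.

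A group of rare X-linked miRNAs, most of which had too few counts to be tested, was higher in sum at 12 months. The Fmr1-Slitrk2 cluster is a run of fast-evolving miRNA genes between those protein-coding genes and is known for its expression in testis. Its 21 precursors with a position lay within chrX:66776757-67988451 (mm10), with no annotated host gene on their strand for the members printed above. The table held 33 of its mature forms, of which 31 had a count in these libraries and 2 were tested. The 33 entries together had 157 counts at 6 months and 908 at 12 months. Pooled CPM was higher at 12 months for 29 of the 31 and lower for 2. Several of the 29 rested on 3 counts or fewer over both ages.

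In CPM summed over the cluster, mice 11 to 15 at 6 months had 42.2, 27.0, 20.2, 20.8 and 21.1, and mice 16 to 20 at 12 months had 122, 90.9, 51.6, 218 and 51.2. Every 12 months library was thus above every 6 months library, with mouse 19 the highest and mice 18 and 20 nearest to the younger group. The means were 26.3 ± 9.33 and 107 ± 68.9 (SD, n = 5), a ratio of 4.06. At the other ages the sum was 0.975 ± 1.09 at 1 week, 7.38 ± 4.54 at 6 weeks and 75.5 ± 26.0 at 14 months. Leaving out mouse 19 lowered the difference from 80.5 to 52.7 CPM, a ratio of 3.01. With 1 library left out at a time the difference ran from 52.7 to 94.4 CPM. Leaving out a library cannot make groups that are apart overlap, so it does not test the separation. The groups stayed apart with library totals alone as the scale (ratio 3.98), with miR-741-3p removed (4.41), and with entries of identical counts taken once (3.82). No p is given for the sum, since the cluster was singled out with results of these libraries known. Which mice were male is not in the labels, and its part in these values was not tested.

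**Figure D2:**
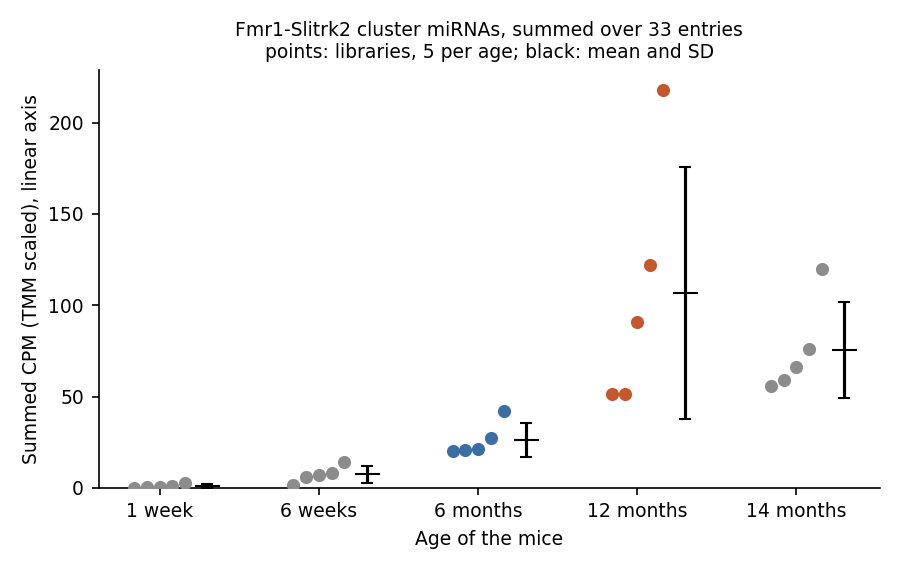
CPM summed over the 33 entries of the Fmr1-Slitrk2 cluster (vertical axis, linear) at the 5 ages; points are libraries, 5 per age, and black bars are the mean and SD. The 6 months libraries lie between 20.2 and 42.2 and the 12 months libraries between 51.2 and 218, without overlap, and the 14 months mean is 75.5.

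miR-741-3p (precursor at chrX:66796805-66796875, minus strand) gave the most counts of the cluster and passed the count filter. It was at 17.7, 15.8, 9.64, 7.81 and 9.60 CPM at 6 months and at 55.6, 41.0, 14.7, 92.0 and 18.2 CPM at 12 months. Mice 16, 17 and 19 were above all younger mice and mice 18 and 20 within or just above their range. The log2 fold change was 1.87 ± 0.55 (SE; 95% interval 0.72 to 3.02; edgeR quasi-likelihood, Benjamini-Hochberg adjusted p = 0.358). With no filter on low counts, 1493 entries were tested and miR-741-3p was called, with a log2 fold change of 2.02 and an adjusted p of 0.00303. The other tested member, miR-547-3p, at the far end of the cluster, was at 5.01 ± 2.20 and 6.97 ± 2.78 CPM (SD, n = 5), a log2 fold change of 0.53 ± 0.56 (SE).

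The remaining members had single or double digit counts. miR-743a-3p had 2, 3, 1, 3 and 1 counts at 6 months and 13, 7, 10, 45 and 14 at 12 months. In CPM this was 1.63 ± 0.789 against 10.8 ± 8.77 (SD, n = 5), without overlap and with a pooled ratio of 5.87, and it was the second cluster member called when no filter was used (log2 fold change 2.79, adjusted p = 0.0199). miR-465a-3p, miR-465b-3p and miR-465c-3p have the same mature sequence and the same counts, 1, 1, 1, 2 and 0 against 5, 9, 6, 18 and 8. These 3 entries are a single measurement, which did not overlap between the ages, at 0.766 and 5.51 CPM in mean. Counts over the 5 libraries of each age were 4 and 39 for miR-871-3p, 4 and 31 for miR-878-3p, 4 and 30 for miR-743b-3p, 2 and 28 for miR-463-5p, 3 and 26 for miR-880-3p and 1 and 16 for miR-470-5p. The 2 members lower at 12 months, miR-201-3p with 4 and 2 counts and miR-881-3p with 2 and 2, were at the floor. So were several of the higher members, such as miR-741-5p with 0 and 1 counts, miR-742-3p with 0 and 2 and miR-201-5p with 0 and 3. The printed members of the cluster have different seeds apart from the miR-743 pair, so the cluster is a group by position and not by seed.

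Among leukocyte miRNAs, miR-155-5p and miR-142a-5p were the named miRNAs above 50 CPM with the smallest p. miR-155-5p, which is induced in activated lymphocytes and macrophages, comes from an exon of Mir155hg (chr16:84714140-84714204, plus strand). It was at 16.7, 20.5, 14.0, 58.9 and 30.7 CPM at 6 months and 39.5, 165, 19.6, 119 and 45.9 CPM at 12 months. Mice 17 and 19 were far above the others, and the ages overlapped through mouse 14 at 6 months and mouse 18 at 12 months. The log2 fold change was 1.44 ± 0.48 (SE; 95% interval 0.46 to 2.42; edgeR quasi-likelihood, Benjamini-Hochberg adjusted p = 0.546). It was 0.99 without mouse 17 and 2.06 without mouse 14, and the miRNA was called when no filter was used (1.53, adjusted p = 0.00598).

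miR-142a-5p is the less abundant arm here of a miRNA found in all blood cell lineages, from an intron of Mir142hg (chr11:87756864-87756927, plus strand). It was at 693, 761, 608, 884 and 742 CPM at 6 months and 876, 1657, 769, 1456 and 1089 CPM at 12 months. The highest libraries were again those of mice 17 and 19, and all 5 of the older mice were above the median of the younger. This gave a log2 fold change of 0.66 ± 0.23 (SE; 95% interval 0.20 to 1.13; edgeR quasi-likelihood, Benjamini-Hochberg adjusted p = 0.546). The 3p arm of the same hairpin was at 1208 ± 194 and 1451 ± 450 CPM (SD, n = 5), a log2 fold change of 0.26 ± 0.21 (SE).

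The other leukocyte markers were on both sides of 0. Of the 7 tested, 0 passed the adjusted test (percent called 0 over all entries), 5 were above 0 and 2 below, and the median log2 fold change was 0.26 against -0.033 over all entries. miR-150-5p, typical of mature lymphocytes, was at 0.74 ± 0.41 (log2, SE), and miR-223-3p, typical of neutrophils and macrophages, was at 0.19 ± 0.21. Below 0 were miR-342-3p, at -0.023 ± 0.28 with mouse 17 alone high in the older group, and the rare miR-223-5p, at -1.24 ± 0.81. Summed over all 8 leukocyte entries, the libraries spanned 2437 to 3385 CPM at 6 months and 2515 to 5555 CPM at 12 months.

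**Figure D3:**
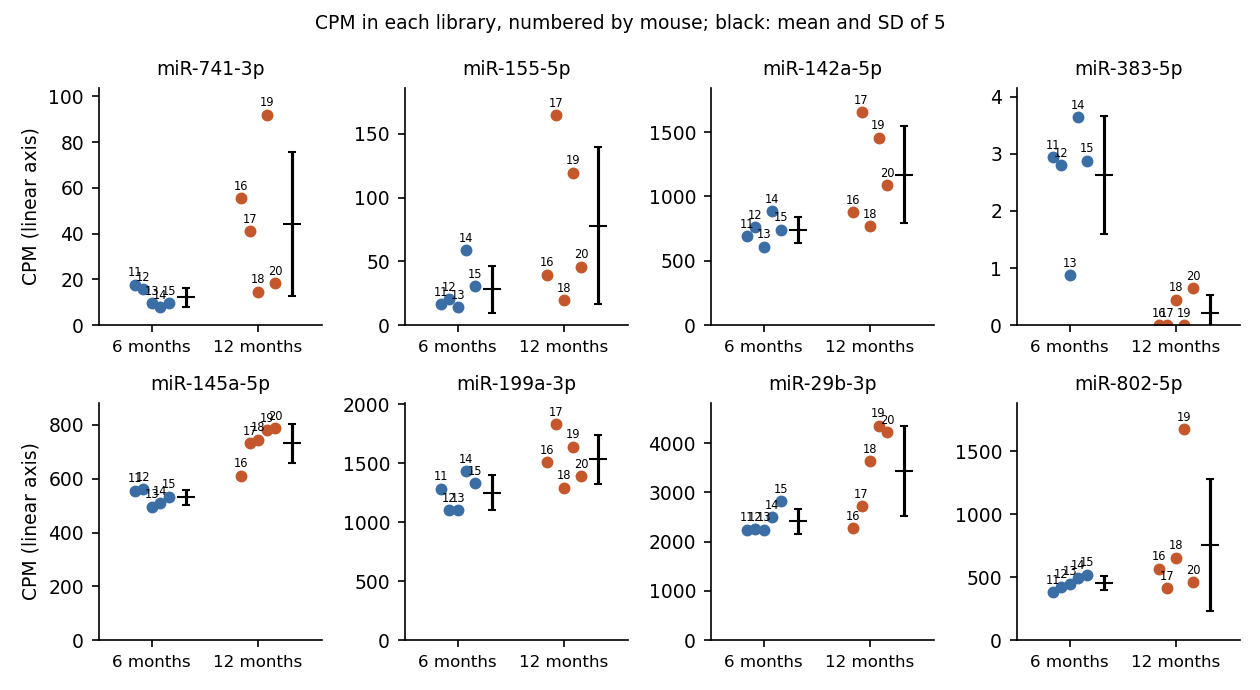
CPM of 8 miRNAs in each of the 10 libraries (linear axes from 0), with 6 months in blue, 12 months in orange, mouse numbers beside the points, and the mean and SD of 5 in black. The ages do not overlap for miR-145a-5p and miR-383-5p; mice 17 and 19 are the highest for miR-155-5p and miR-142a-5p, and mouse 19 alone is high for miR-802-5p.

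miRNAs of stellate and smooth muscle cells, the contractile and matrix-forming cells of liver and its vessels, were all higher in mean at 12 months. The 9 tested entries had log2 fold changes of 0.18 to 0.64 with a median of 0.40, and 0 of 9 passed the adjusted test. All 9 also stayed above 0 with DESeq2 size factors and with library totals alone as the scale, where the median was 0.43 and 0.36. With the log2 library total in the model all 9 were above 0 and the median was lower, at 0.29. Of the 9, 5 were higher at an unadjusted p under 0.05, against 3.32% of all tested entries. That count included the miR-199a and miR-199b pairs, which had identical counts, so it stands for 3 measurements. The 9 tested entries hold the same pairs and are likewise fewer than 9 separate measurements. Summed over the list, the libraries were at 7343 to 9489 CPM at 6 months and 8271 to 11608 CPM at 12 months.

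miR-145a-5p, a regulator of smooth muscle differentiation, was at 556, 562, 496, 509 and 534 CPM at 6 months. At 12 months it was at 611, 733, 745, 781 and 788 CPM. The lowest older library, that of mouse 16, was above the highest younger one. The difference in log2 was 0.46 ± 0.17 (SE; 95% interval 0.10 to 0.82; edgeR quasi-likelihood, Benjamini-Hochberg adjusted p = 0.582). miR-143-3p, from the same primary transcript, was at 5104 ± 512 and 6089 ± 944 CPM (SD, n = 5), overlapping between the ages, with a log2 fold change of 0.25 ± 0.14 (SE).

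miR-199a-3p, from the Dnm3os transcript on chromosome 1 (chr1:162217814-162217923, plus strand) and a second gene on chromosome 9, was at 1284, 1105, 1100.1, 1436 and 1329.7 CPM at 6 months. At 12 months it was at 1510, 1830, 1293, 1642 and 1391 CPM. The ages overlapped, with mouse 18 the lowest of the older group. The log2 fold change was 0.29 ± 0.13 (SE), and that of the other arm, miR-199a-5p, was 0.48 ± 0.21. miR-214-3p, encoded beside miR-199a-2 in the same transcript, was at 0.64 ± 0.47. For each of these the adjusted p in edgeR's quasi-likelihood test was at least 0.582.

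The miR-29 family, known for repressing collagen and other matrix genes, had the highest median among groups of miRNAs with a shared seed. The 3 guide arms each had a log2 fold change of 0.51, and 0 of 3 passed the adjusted test. miR-29b-3p was at 2246, 2253, 2245, 2494 and 2821 CPM at 6 months and 2276, 2725, 3639, 4358 and 4220 CPM at 12 months. Mice 18, 19 and 20 were above every younger mouse, and mouse 16 was at the younger level. The log2 fold change was 0.51 ± 0.24 (SE; 95% interval 0.015 to 1.01; edgeR quasi-likelihood, Benjamini-Hochberg adjusted p = 0.652).

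miR-29a-3p was at 12400.3 ± 3098 and 17617 ± 6867 CPM (SD, n = 5), a log2 fold change of 0.51 ± 0.30 (SE). Its counts and those of miR-29c-3p agreed within 0.015 log2 units in each of the 10 libraries, so the pair is not 2 measurements. Of the 3 passenger arms tested, miR-29c-5p was at -0.13 ± 0.24, miR-29a-5p at -0.17 ± 0.44 and miR-29b-2-5p at 0.39 ± 0.65 (log2, SE). Levels of miR-29 moved with library totals: the 4 deepest libraries, from mice 14, 18, 19 and 20, had the 4 highest values of miR-29a-3p. With the log2 library total in the model, the log2 fold change was 0.20 for miR-29b-3p and 0.13 for miR-29a-3p. At 6 weeks and 14 months miR-29b-3p was at 1119 ± 297 and 3950.4 ± 1148 CPM (SD, n = 5). The step from 6 weeks to 6 months, which shares the 6 months libraries, was 1.11 in log2 (edgeR quasi-likelihood, adjusted p = 0.0162).

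Other families that share a seed had medians on both sides of 0. RefSeq gave a mature sequence for 293 of the 339 named miRNAs tested, and 13 seed groups had at least 3 members, 53 miRNAs in all. Their medians ran from -0.27 to 0.51, with 7 above 0 and 6 below. The let-7 group with seed GAGGUAG, conserved regulators of growth and differentiation, was the largest. Its 10 members had log2 fold changes of -0.084 to 0.083, and all 10 had 95% intervals within 2-fold. let-7a-5p, the most abundant of them, was at 25463 ± 4124 and 24579 ± 3799 CPM (SD, n = 5).

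The group of miR-148a-3p, miR-148b-3p and miR-152-3p (seed CAGUGCA), which target lipid and epigenetic regulators, was at 0.14, 0.10 and 0.25 in log2 with all 3 bounded within 2-fold. miR-30a-5p, miR-30c-5p and miR-30e-5p (seed GUAAACA) were at -0.14, 0.12 and -0.12. In the seed group AAUACUG, markers of bile duct epithelium, miR-429-3p was at -0.21, miR-200c-3p at -0.18 and miR-200b-3p at -0.15. The other tested markers of that epithelium, miR-200a-3p and miR-141-3p, were at -0.071 and 0.14. The lowest median, -0.27, was that of the seed CCCUGAG, with miR-125a-5p at 0.028, miR-125b-5p at -0.27 and miR-351-5p at -0.88 ± 0.36 (SE). For miR-125a-5p and miR-125b-5p the SE was 0.65 and 0.58. A change of 2-fold either way lay within the interval of miR-125a-5p. That of miR-125b-5p, -1.47 to 0.93, held a 2-fold fall but not a 2-fold rise.

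**Figure D4:**
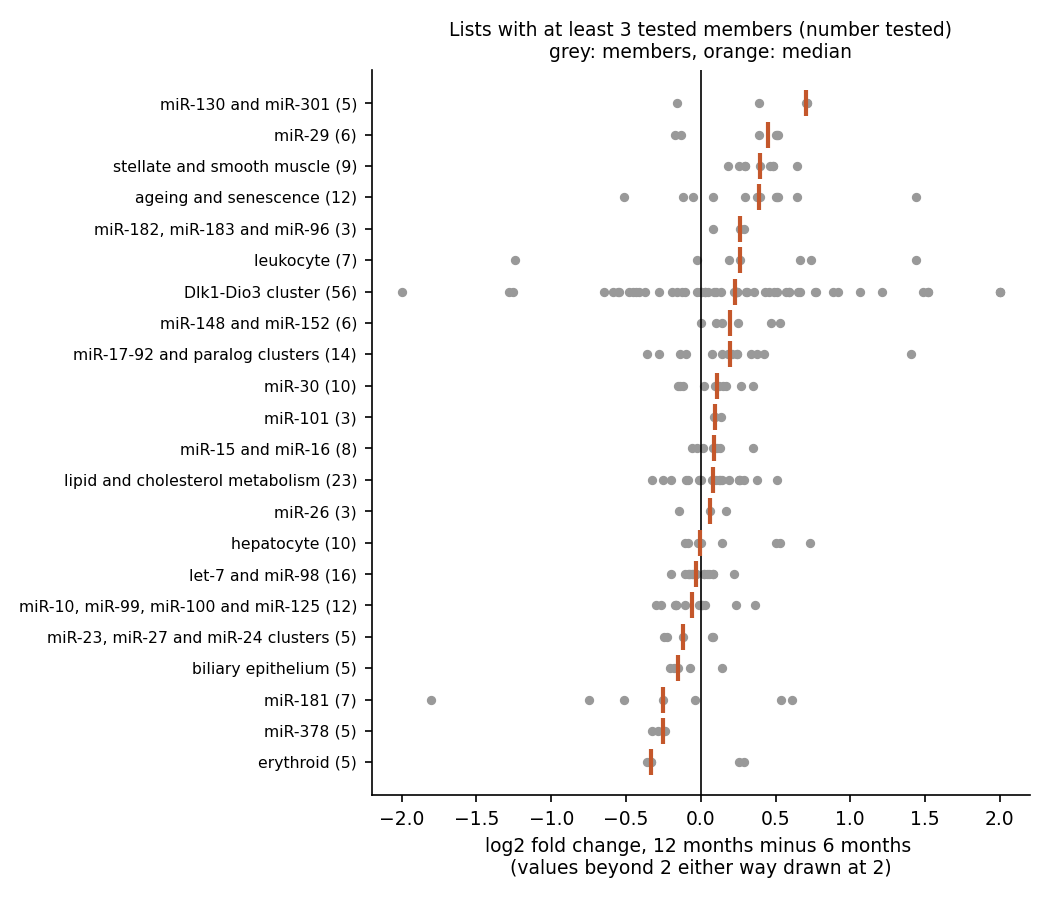
Log2 fold change, 12 months minus 6 months, of the tested members (grey points) and their median (orange bar) for every list with at least 3 tested members; the number tested is in brackets and values beyond 2 either way are drawn at 2. Medians lie between -0.33 for the erythroid list and 0.71 for miR-130 and miR-301, and the members of let-7, miR-30 and miR-378 lie close together.

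Hepatocyte miRNAs were split around 0, with 5 of 10 tested above and 5 below and a median of -0.0036. miR-122-5p was at -0.0099 ± 0.12, miR-192-5p at -0.11 ± 0.20, miR-194-5p at -0.020 ± 0.12 and miR-148a-3p at 0.14 ± 0.17 (log2, SE). miR-802-5p stood apart from them. This miRNA, which is raised in obese mouse liver, lies at chr16:93369720-93369816 (plus strand) outside annotated genes on its strand. It was at 384, 424, 448, 496 and 520 CPM at 6 months and 568, 413, 656, 1677 and 459 CPM at 12 months. Mouse 19 alone was far above the rest. In log2 the difference was 0.73 ± 0.32 (SE; edgeR quasi-likelihood, Benjamini-Hochberg adjusted p = 0.586) and 0.27 without mouse 19.

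miRNAs that act on lipid and cholesterol metabolism numbered 23 tested, of which 14 were above 0, 8 below and 1 at 0, with a median of 0.084. For 19 of the 23 the 95% interval lay within 2-fold, counting the 1 at 0, whose interval has no width. miR-378a-3p and miR-378a-5p, encoded in the Ppargc1b gene, were at -0.25 ± 0.20 and -0.32 ± 0.33 (log2, SE), and all 5 tested miR-378 entries were below 0. miR-27a-3p was at 0.080 ± 0.14, miR-33-5p, encoded in Srebf2, at -0.20 ± 0.48, and miR-30c-5p at 0.12 ± 0.15. No member of the list passed the adjusted test.

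miRNAs linked with ageing and cell senescence numbered 12 tested, of which 9 were above 0 and 3 below, with a median of 0.39 and 0 past the adjusted test. With the log2 library total in the model the median was 0.13. Besides miR-155-5p, miR-29 and miR-199a-3p, already described, the list held miR-34a-5p, a target of p53, at 469 ± 141 and 610 ± 204 CPM (SD, n = 5) and 0.38 ± 0.35 in log2 (SE). miR-146a-5p, a brake on NF-kB signalling, was at 3405 ± 1805 and 4479 ± 1864 CPM, with mouse 14 the highest of the younger group and mouse 19 the highest of the older. Its log2 fold change was 0.39 ± 0.34 (SE). miR-21a-5p, abundant in fibrosis and regeneration, was at -0.053 ± 0.27.

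Of 5 erythroid entries tested, which report on red cell material, 2 were above 0 and 3 below. miR-451a was at -0.36 ± 0.35 and miR-486a-5p, with counts identical to those of miR-486b-5p, at -0.33 ± 0.31 (log2, SE). miR-144-3p and miR-144-5p were at 0.25 ± 0.35 and 0.29 ± 0.48, and the erythroid sum spanned 248 to 558 CPM at 6 months and 232 to 452 CPM at 12 months. Of the endothelial arms, miR-126a-3p was at -0.13 ± 0.16 and miR-126a-5p at 0.091 ± 0.20. Of 7 entries of skeletal and heart muscle 2 were tested, and the list summed to 7.45 to 13.4 CPM at 6 months and 9.78 to 13.2 CPM at 12 months. The imprinted Dlk1-Dio3 cluster, high in newborn liver, had 56 of 88 entries tested, 35 above 0, 18 below and 3 at 0, with a median of 0.23. Its median was 0.085 with the log2 library total in the model, 0.12 with library totals alone as the scale and 0.30 without the filter. Only the 3 entries at 0 had an interval within 2-fold, and that interval has no width because their approximate SE is 0. No member of the cluster was thus bounded within 2-fold by its data. Of its abundant members, miR-376b-3p and miR-379-5p were at 0.51 ± 0.53 and 0.24 ± 0.51. Among lists with at least 3 tested members, miR-130 and miR-301 had the highest median, 0.71 over 5 entries, which include the identical counts of miR-301a-3p and miR-301b-3p at 6.85 ± 1.96 and 11.1 ± 2.54 CPM (SD, n = 5). miR-130a-3p, at 507 ± 14.1 and 664 ± 173 CPM, had a log2 fold change of 0.39 ± 0.21 (SE).

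On the lower side, miR-425-5p was the only miRNA below 0 among the 10 with the smallest p above 50 CPM. It was at 111, 121, 118, 182 and 117 CPM at 6 months and 111, 79.9, 108, 103 and 98.1 CPM at 12 months. None of the older mice was above the younger median, and mouse 14 was the highest of all. Its log2 fold change was -0.38 ± 0.19 (SE; edgeR quasi-likelihood, Benjamini-Hochberg adjusted p = 0.652). miR-181a-2-3p was at -1.80 ± 0.72 with 7.10 ± 6.63 and 2.02 ± 1.45 CPM (SD, n = 5), mouse 11 alone holding 18.7 CPM. miR-181a-5p, a brake on lymphocyte signalling, was at -0.51 ± 0.28, and the rare miR-181a-1-3p at -0.037 ± 0.59.

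The smallest p values besides that of miR-741-3p belonged to miR-669c-5p and miR-383-5p, which are named here after their values were seen. miR-669c-5p was at 2.95, 4.66, 5.26, 2.08 and 2.88 CPM at 6 months and 4.94, 10.3, 7.11, 12.2 and 11.1 CPM at 12 months. Only mouse 16 lay within the younger range, and the log2 fold change was 1.40 ± 0.42 (SE; edgeR quasi-likelihood, adjusted p = 0.358). At 6 weeks it was at 11.2 ± 3.86 CPM (SD, n = 5), so 6 months had the lowest mean of these 3 ages. miR-383-5p had 3, 3, 1, 7 and 3 counts at 6 months and 0, 0, 1, 0 and 2 at 12 months. The 17 and 3 pooled counts gave a 6 months to 12 months ratio of 8.59 (95% exact interval 2.48 to 45.7, covering counting error only). That interval leaves out the spread between mice, and miR-383-5p did not pass the adjusted test. It had been at 38.1 ± 26.1 CPM at 6 weeks and was at 0.607 ± 0.651 CPM at 14 months. miR-3105-5p, whose ages did not overlap, was at 12.5 to 17.2 CPM and 17.3 to 25.9 CPM, with a log2 fold change of 0.39 (unadjusted p = 0.202).

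The unconservative entries differed in direction from the named miRNAs. Of the 52 tested, 48 were below 0, with a median log2 fold change of -0.74, and all 7 at an unadjusted p under 0.05 were lower at 12 months. Summed over the 398 entries, counts were 1633, 2202, 996, 1299 and 860.0 at 6 months and 1260.0, 1151, 1390.0, 814 and 535 at 12 months. As a share of the library this was 0.109% ± 0.0556 and 0.0678% ± 0.0531 (SD, n = 5), with overlap between the ages. The share was lowest in the deepest library, that of mouse 20, at 0.0142%, and second highest of the 10 at 0.150% in the shallowest, that of mouse 16. The median was -0.38 without mouse 20, -1.11 without mouse 16 and -0.49 with the log2 library total in the model. Library totals thus moved with this result, and their part in it was not tested beyond that model.

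**Figure D5:**
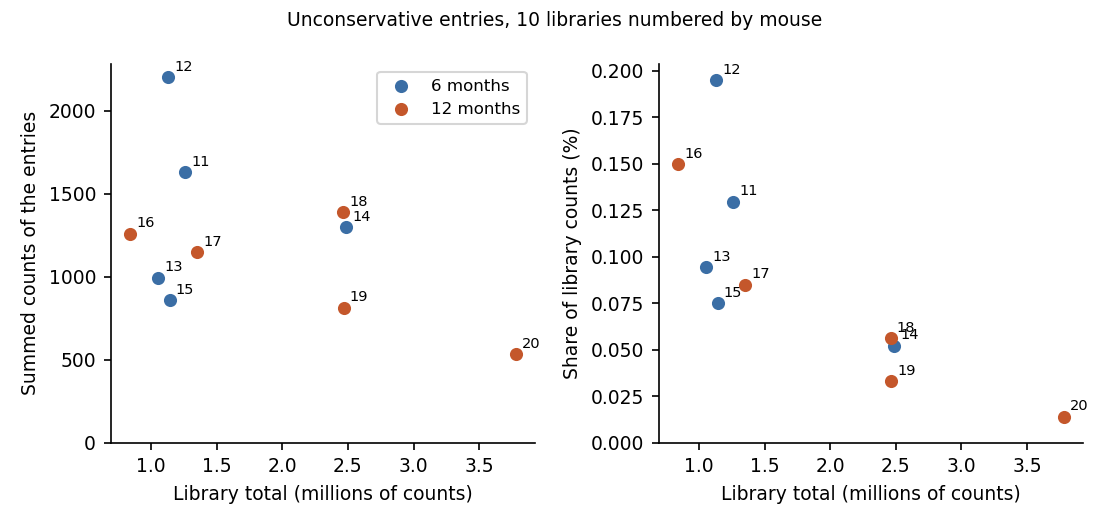
Summed counts of the 398 unconservative entries (left) and their share of library counts in percent (right) against the library total, for the 5 libraries of 6 months (blue) and of 12 months (orange), numbered by mouse. The share is highest in mice 12 and 16, at 0.195% and 0.150%, and lowest in mouse 20, the deepest library, at 0.0142%.

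Several pairs of entries were not separate measurements. In 12 pairs, covering 24 entries, the counts lay within 0.05 log2 units of each other in each of the 10 libraries, and in 4 pairs they were identical. miR-199a-3p and miR-199b-3p have the same sequence. Others differed at a single base, counted from 1 at the 5′ end: U12A between miR-10a-5p and miR-10b-5p, G22C between miR-103-3p and miR-107-3p, U11C between miR-19a-3p and miR-19b-3p and A16U between miR-100-5p and miR-99a-5p. The counts in lists above include both entries of such pairs.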

How the data were processed

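The authors deposited 1 table of raw counts per miRNA entry, with a column for each of the 25 libraries and the length of each entry. Bowtie, edgeR and the build mm10 are named in the submitters' processing notes, without versions. Whether counts are reads or unique molecular identifiers is not given in the sources used here. The floors and the exact interval of the pooled count ratio cover counting error only. Intervals of fold changes come from the fitted model and take in the spread between mice. Groups came from the ages in the labels, and 0 columns were left unused. No 2 libraries of 1 age agreed within sampling noise (20 pairs, smallest chi-square per degree of freedom 12.1); the p-values measure the spread between mice.

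Entries passing filterByExpr (391) were fitted in edgeR 4.0.16 (R 4.3.3) with TMM factors and a robust quasi-likelihood model of all 25 libraries, 1 coefficient per age, and the contrast 12 months minus 6 months was adjusted by Benjamini-Hochberg over all 391. The biological coefficient of variation was 37.6%. The SE, derived from each log2 fold change and its F statistic, is approximate. The model was tested on simulated data. Exact two-sided permutation tests (scipy 1.17.1), adjusted over 4, were used for the library values. DESeq2 1.42.0 and limma 3.58.1 (voom) were alternatives.

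Named were any entries past the threshold, the 10 smallest p at a mean of at least 50 CPM, the 10 most abundant miRNAs and the 4 most abundant tested members of each of 30 lists, 98 miRNAs in all; the text prints a part of them and adds others as marked or as members of a list. Members, lists and this rule were chosen with earlier results of these data known, and 2 list definitions that took in unrelated miRNAs were corrected after the table was read. Positions are from GENCODE M21 (GRCm38.p6) and sequences from RefSeq.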

Additional observations from a re-analysis of the deposited data

Results flagged for a closer look

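Within each age, a library that lay apart from the other 4 of its group by more than Dixon's 95% critical value was found in 17 of 212 groups of 5 looked at, or 8.02%; chance alone picks out about 1 in 20. At 6 months, mouse 14 had the highest library total, 2485335 counts against 1052751 to 1258885 in the others. Mouse 14 was also high for miR-146a-5p, at 6574 CPM against 2104 to 2987, and for miR-425-5p, at 182 CPM against 111 to 121. Mouse 11 was high for miR-15a-5p at 592 CPM (others 490.1 to 519), for miR-181a-2-3p at 18.7 CPM (others 1.75 to 5.76) and for miR-547-3p at 8.84 CPM (others 3.51 to 4.80). Mouse 13 was high for the Dlk1-Dio3 members miR-376b-3p, at 187 CPM against 37.5 to 77.8, and miR-411-5p, at 119 CPM against 17.7 to 40.3. It was low for miR-222-3p, at 76.3 CPM against 125 to 136. Mouse 15 was high for miR-30c-5p, at 2353 CPM against 2176 to 2187.

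At 12 months, mouse 19 was high for miR-802-5p, at 1677 CPM against 413 to 656, and for miR-96-5p, at 47.6 CPM against 16.0 to 23.4. Mouse 18 was high for miR-27b-3p, at 5240.0 CPM against 4158 to 4439, and for the red cell miRNA miR-451a, at 304 CPM against 143 to 176. Mouse 17 was high for miR-342-3p, at 456 CPM against 181 to 253. Mouse 16 was high for miR-486a-5p and miR-486b-5p, which have identical counts, at 24.7 CPM against 18.2 to 20.0.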

How the results depend on the processing

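No paired analysis was possible because no number in the labels is shared by a 6 months and a 12 months mouse. Over 22 alternatives to the settings used, the number of called entries stayed at 0 in 21. Without the filter on low counts, 3 entries were called, all 3 higher at 12 months: miR-741-3p, miR-155-5p and miR-743a-3p. In the other 21 the smallest adjusted p ran from 0.102 (without mouse 18) to 0.755 (log2 library total in the model). Entries at an unadjusted p under 0.05 numbered 28, and 17 without mouse 20, 42 without mouse 16, 92 without the filter and 11 at a mean of at least 50 CPM.

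Some alternatives shifted the values in median. Over 130 entries tested in each, the median log2 fold change was 0.028, and 0.16 without the filter, 0.17 without mouse 14, 0.16 without mouse 18 and 0.11 without mouse 20. Across the alternatives 39 of 100 named miRNAs changed sign somewhere, not always in the direction of this shift. Of these, 32 did so within 1 SE and from values of at most 0.25 either way. The 7 that moved further are given by their range with 1 mouse left out: let-7a-5p -0.11 to 0.14, let-7f-5p -0.13 to 0.10, miR-122-5p -0.064 to 0.17, miR-194-5p -0.033 to 0.11, miR-200b-3p -0.28 to 0.090, miR-221-3p -0.19 to 0.042 and miR-449a-5p -1.56 to 0.093. miR-122-5p was at 0.11 without the filter. The difference in the share of the 10 most abundant miRNAs, -0.18 percentage points, ran from -0.59 to 0.078 with 1 mouse left out and was 0.15 with medians in place of means. That in miRNAs detected, 0.72, ran from -3.33 to 5.13. No p of these passed its threshold. The cause was not tested.

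Depth limits the rare miRNAs: 31 of 33 entries of the X-linked cluster had too few counts to be tested, and 231 of 391 entries had a 95% interval reaching past 2-fold in either direction. Alternatives for the cluster, and those without the unconservative entries or without mice 16 and 20, were chosen after seeing the data.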

Other observations

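Several further families held values on both sides of 0. The seed AAAGUGC, shared by the growth-promoting miR-17, miR-20, miR-93 and miR-106 group, had 6 tested members, 5 above 0 and 1 below, with a median log2 fold change of 0.36. Within it the rare miR-20b-5p was at 1.40 ± 0.69 (SE) and 1.30 and 3.60 CPM in mean at 6 and 12 months, while miR-93-5p, the more abundant, was at 0.14 ± 0.15. The miR-15 and miR-16 seed AGCAGCA, known for cell cycle targets, had 6 members with a median of 0.088. miR-221-3p and miR-222-3p were at -0.14 ± 0.16 and -0.15 ± 0.24, and miR-23a-3p and miR-27a-3p, from a single primary transcript, were at -0.23 ± 0.20 and 0.080 ± 0.14. miR-26b-5p was at 0.17 ± 0.18 and miR-101a-3p at 0.093 ± 0.14. None of these passed the adjusted test, and the 95% intervals of miR-23a-3p, miR-27a-3p, miR-26b-5p, miR-101a-3p, miR-93-5p and the miR-221 pair lay within 2-fold.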
